A study of Homo sapiens with 2 samples.

Results

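MYC, MAX and the MXD proteins form a network of transcription factors that share a DNA site and compete for a common partner, and their mRNAs were measured here in K562, an established human line of erythroleukemia cells. The members were the genes MYC, MYCN, MYCL, MAX, MXD1, MXI1, MXD3, MXD4, MNT and MLX. All probe sets annotated with one of these 10 symbols were taken, 34 of the 54613 probe sets of the array other than controls. On this array 19775 genes had a probe set of their own, all members but MXD4 among them. One culture was nucleofected with 3 µg of a miR-34a mimic and the other with 3 µg of a control mimic without homology to human genes, and total RNA was taken from both 24 hours later. The series held 1 Affymetrix array per group, so every value is a single measurement and no test between the groups could be made. Precision is limited by this number of arrays. The mimic is a synthetic RNA at a level set by transfection and not by the cell's own miR-34a gene.

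MYC, MYCN and MYCL activate genes as heterodimers with MAX, bound to the E-box CACGTG. MXD1, MXI1, MXD3, MXD4 and MNT bind the same site with MAX and recruit the SIN3 corepressor with its histone deacetylases, and several of the MXD proteins are made as blood cells stop dividing and mature. MLX is a second shared partner: it pairs with MXD1, MXD4 and MNT and, in a branch that senses glucose, with MLXIP (MondoA) and MLXIPL (ChREBP). MGA, a further partner of MAX, joins a repressive Polycomb complex. MYC and MYCN have both been reported as direct targets of miR-34a.

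The microRNA that was added and the E-box that the network binds are the sequences on which the comparison turns. The labels name the mimic by its microRNA only and give neither its arm nor its sequence. The mature 5p arm of RefSeq (GRCh38.p14) is shown because it carries the miR-34a seed, bases 2 to 8 from the 5′ end. The seed is printed in capitals, and miR-449a and miR-449b-5p are shown because they share it. For miR-34c the reference used here held the 3p arm only, so its 5p arm could not be compared. The locus of hsa-miR-34a-5p is chr1:9151735-9151756, minus strand.
hsa-miR-34a-5p: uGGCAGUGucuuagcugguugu
hsa-miR-449a: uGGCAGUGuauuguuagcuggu
hsa-miR-449b-5p: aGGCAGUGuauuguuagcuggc

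Promoter windows from 250 bases before to 50 bases after the RefSeq start (GRCh38.p14) were searched for CACGTG, which reads the same on both strands. Of 27305 such windows 2030 held it, a share of 7.43%. Of the 9 members with a window, MXD4, MNT and MLX held the motif, and MYCN, MYCL, MAX, MXD1, MXI1 and MXD3 did not. The sites are shown with 12 bases on either side and CACGTG in capitals, at chr4:2262330-2262359 (minus strand) for MXD4, chr17:2401236-2401265 (minus strand) for MNT and chr17:42567038-42567067 (plus strand) for MLX.
MXD4: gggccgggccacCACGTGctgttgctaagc
MNT: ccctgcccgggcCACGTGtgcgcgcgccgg
MLX: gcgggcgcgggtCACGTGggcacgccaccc

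MYC mRNA was lower with miR-34a, while MAX stayed close to the control and the MAX-binding antagonists lay within 1.5-fold of it, some above and some below. Ratios are given as log2 of miR-34a over control, computed on log2(signal + 14.9) and centred on the median of 12774 expressed genes. Expressed means a mean level over both arrays at or above that of the median probe set, a signal of about 39.0, and a gene has the value of its brightest such probe set. A pseudocount of this kind understates the change of dim genes. Background was set at 75.4, the highest signal of 27 bacterial control probe sets that were chosen for their low signal. Of the 34 probe sets, 20 read at or below it, within background, on both arrays. The other 14 covered 8 genes, and 4 of them were lower and 10 higher with miR-34a, where 51.7% and 48.3% of all 20331 probe sets above background on either array were, and their median log2 ratio was 0.14. One of the 14 was at least 1.5-fold lower and 0 were at least 1.5-fold higher, against 3.35% and 3.38% of those 20331. At the level of genes, 8 members counted as expressed, of which MYC was at least 1.5-fold lower and 0 were at least 1.5-fold higher, against 3.01% and 3.28% of all expressed genes. No member passed 2-fold, which 0.548% of expressed genes passed downward and 0.595% upward. The sizes have no error between cultures, and in RNA of whole cultures fewer cells with a transcript and less of it per cell cannot be told apart.

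**Figure D1:**
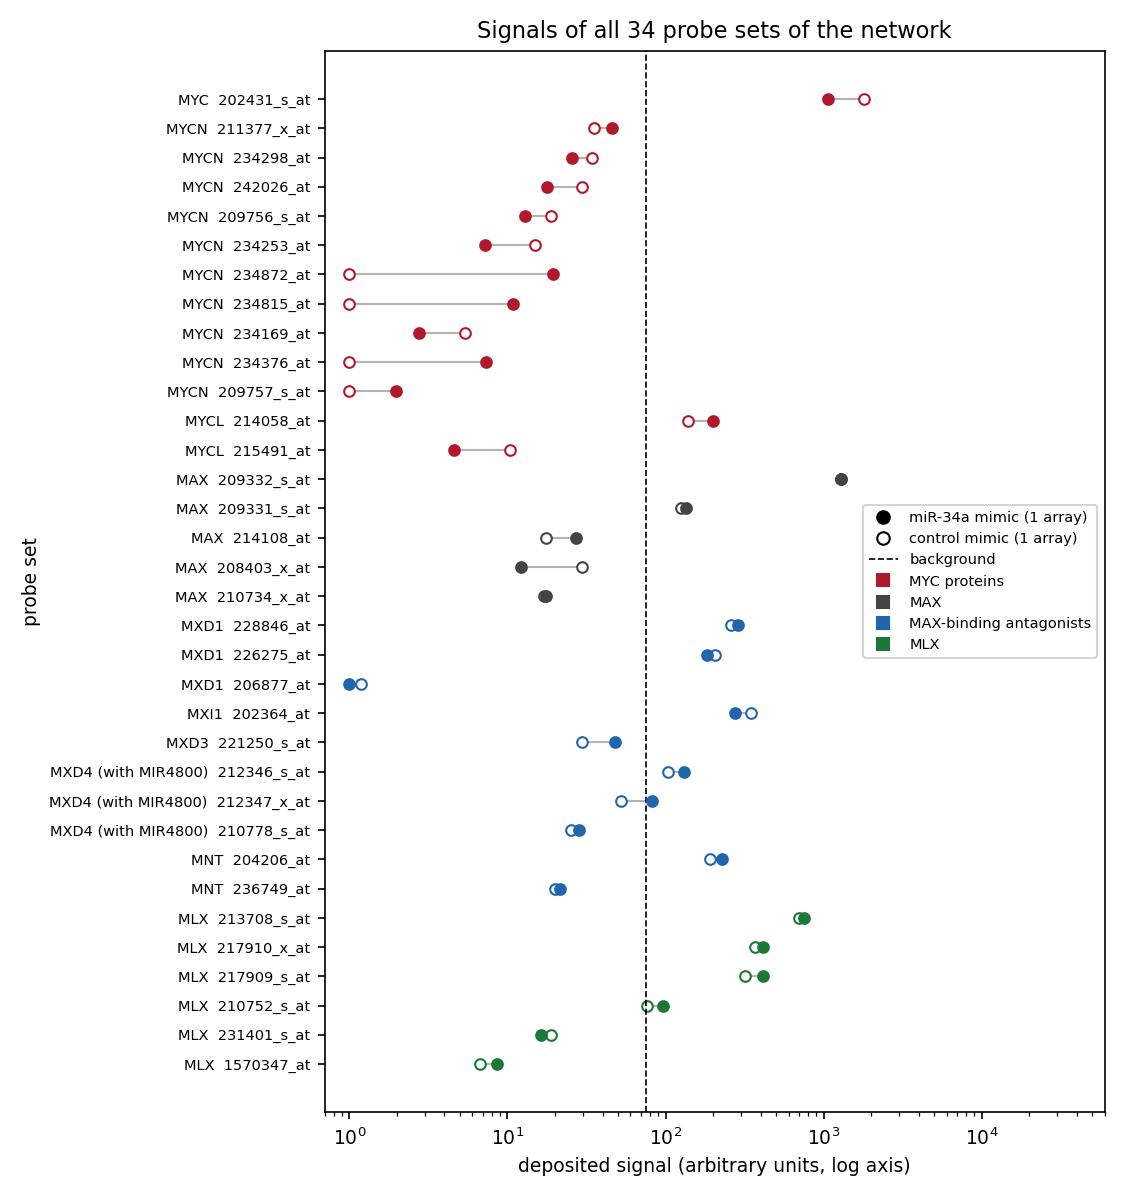
Deposited signal (arbitrary units, log axis) of all 34 probe sets of the 10 genes, 1 row per probe set, with filled points for the miR-34a array and open points for the control array. The dashed line is the background signal of 75.4; MYC lies far above it with the miR-34a point to the left, and all 10 MYCN probe sets lie below it.

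The arrays lay close together in scale, with median signals of 40.1 (miR-34a) and 39.5 (control). The 3′ to 5′ signal ratio, which grows as RNA degrades, was 3.53 on the miR-34a array and 3.07 on the control array for GAPDH, and 4.54 and 4.30 for ACTB; its part in the results was not tested. All 7 K562 markers analysed here were above background, and 6 of them read higher with miR-34a, where 50% of all expressed genes were higher. HBZ, an embryonic globin gene, read 7672 with miR-34a and 4258 with control, and the erythropoietin receptor gene EPOR 177.2 with miR-34a and 119.8 with control. LMO2 read 1644 with miR-34a and 1253 with control, and GATA1 1395 with miR-34a and 1187 with control. KLF1 (1579 with miR-34a and 1467 with control) and HBE1 (11843 with miR-34a and 10516 with control) were closer together, and TFRC was lower, at 6309 with miR-34a and 6806 with control. The part of these markers in the MYC result was not tested. The T cell markers CD3E, CD2 and CD28 read within background, as did CD14, MPO, KRT5 and KRT14, while CD79A, LYZ and COL1A1 did not. CD79A had signals of 341.7 (miR-34a) and 329.9 (control) and LYZ of 562.8 and 517.5 in the same order, and COL1A1 read 118.6 and 120.8.

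Among the MYC proteins, MYC itself, the growth regulator expressed in most dividing cells, had a signal of 1066 with miR-34a and 1814 with control. The log2 ratio was -0.77, a level 1.70-fold lower. Only 180 of the 12774 expressed genes, or 1.41%, had a ratio as low or lower. This value rests on 1 probe set of the _s_at class, which can bind more than 1 transcript of a gene or gene family, and no second MYC probe set was there to set against it. Over all expressed genes with several expressed probe sets, the SD between probe sets of a gene was 0.24 on the log2 scale. This is a technical spread, smaller than the MYC ratio, and it leaves out differences between cultures.

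MYCL, a member first known from small cell lung cancer, had the opposite direction. Its brighter probe set read 200.2 with miR-34a and 139.5 with control, a log2 ratio of 0.47, and 5.86% of expressed genes were as high or higher. The other probe set read 4.58 with miR-34a and 10.4 with control, within background, so MYCL also rests on 1 probe set. MYCN, the member of neural precursors and neuroblastoma, was not measurable above background. Its 10 probe sets read between 1.98 and 45.7 with miR-34a and between 1 and 35.5 with control, and 4 of them were at the floor of 1 on the control array. The brightest of them passed the filter on mean level with a log2 ratio of 0.26, and the ratios of the 10 ran from -0.45 to 1.10. They gave no usable direction for MYCN.

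**Figure D2:**
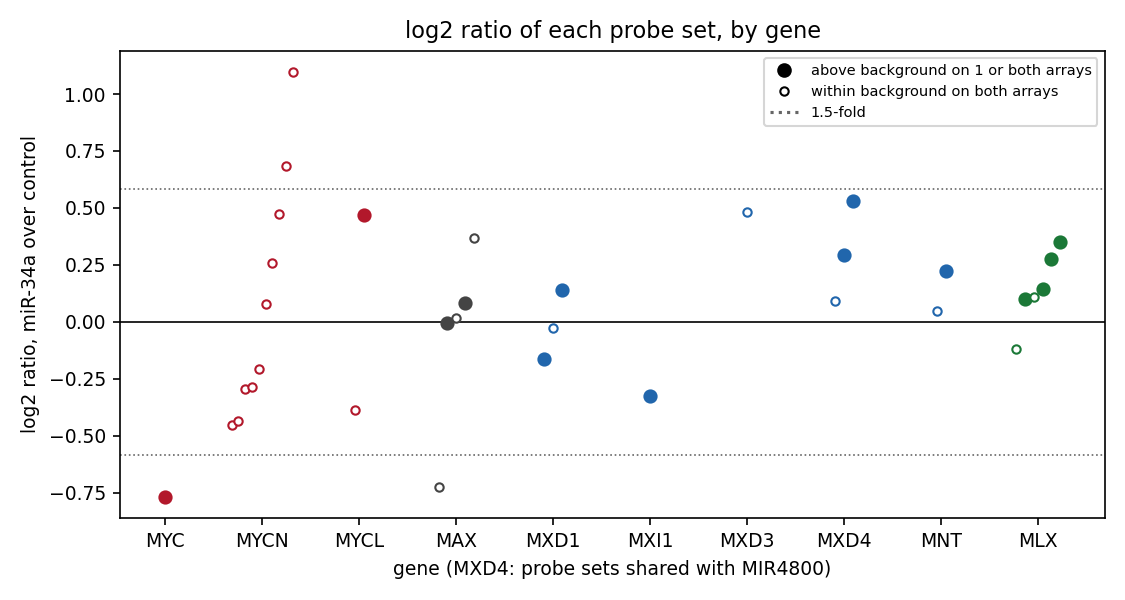
The log2 ratio of miR-34a over control for each probe set, grouped by gene and coloured by role, with large filled points above background on 1 or both arrays, small open points within background and dotted lines at 1.5-fold. Among filled points MYC alone lies past a dotted line, at -0.77, while the open points of MYCN scatter from -0.45 to 1.10.

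MAX, the partner that MYC needs to bind DNA and the main partner of the MXD proteins, had almost the same signal on both arrays. The brightest probe set read 1296 with miR-34a and 1294 with control, a log2 ratio of -0.0067 after centring. A second probe set read 135.0 with miR-34a and 125.7 with control, at 0.083. The remaining 3 read within background, between 12.2 and 27.2 with miR-34a and between 17.0 and 29.5 with control. The sign of the brightest probe set's ratio turned with the centring and the normalization, so no direction is given for MAX.

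The antagonists had no common direction. Of their 6 probe sets above background 4 were higher and 2 lower, with a median log2 ratio of 0.18 and none past 1.5-fold. MXD1, which rises when myeloid and epithelial cells differentiate, read 289.5 with miR-34a and 259.3 with control on its brightest probe set, a ratio of 0.14. Its second probe set read 182.7 with miR-34a and 204.8 with control, at -0.16, and the remaining one was at or near the floor. The probe sets of MXD1 thus disagreed in direction, and their mean was -0.010 ± 0.21 (SD, 2 probe sets).

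MXI1, an antagonist also known as a suppressor of growth in prostate cells, was the antagonist with the lowest ratio. It read 275.0 with miR-34a and 345.9 with control, a log2 ratio of -0.32 on its only probe set, and 11.2% of expressed genes were as low or lower. MNT, an antagonist present in both resting and dividing cells, read 226.8 with miR-34a and 191.1 with control, a ratio of 0.22, while its second probe set was within background at 21.6 with miR-34a and 20.1 with control. Of expressed genes, 19.9% were as high as MNT or higher. MXD3, an antagonist made in S phase, had 48.0 with miR-34a and 29.8 with control on its only probe set, both within background, which gave it no usable direction.

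The 3 probe sets for MXD4, an antagonist of maturing cells, are annotated to both MXD4 and the microRNA gene MIR4800, so they are given for the pair and stay out of the counts of genes. They read 131.9, 82.5 and 28.3 with miR-34a and, in the same order, 104.1, 52.2 and 25.4 with control. All 3 were higher with miR-34a. The log2 ratio was 0.29 on the brightest, 0.53 on the next, whose control signal lay within background, and 0.093 on the last, which was within background on both arrays.

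MLX was slightly higher with miR-34a on every probe set above background. Its 4 such probe sets read 753.2, 412.4, 413.2 and 96.6 with miR-34a and, in the same order, 697.9, 369.6, 318.8 and 76.8 with control. The log2 ratios were 0.099, 0.14, 0.35 and 0.27, with a mean of 0.22 ± 0.12 (SD, 4 probe sets). They agree in direction and lie within 1.5-fold. Probe sets of 1 gene on 1 pair of arrays share the same RNA and are not replicates.

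The rule set the MYC proteins against the MAX-binding antagonists. MYC stood 0.91 (log2) below the median of the 3 expressed antagonists MXD1, MXI1 and MNT, which was 0.14, and MYCL stood 0.33 above it. As groups, the medians were 0.26 for MYC, MYCN and MYCL and 0.14 for the antagonists, a difference of 0.12. The MYC group has no useful median, since its middle value is that of MYCN, within background. With MYCN left out by a filter at the background signal, a choice made after its values were seen, the difference was -0.29. Of the MYC proteins above background, MYC was thus lower and MYCL higher.

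**Figure D3:**
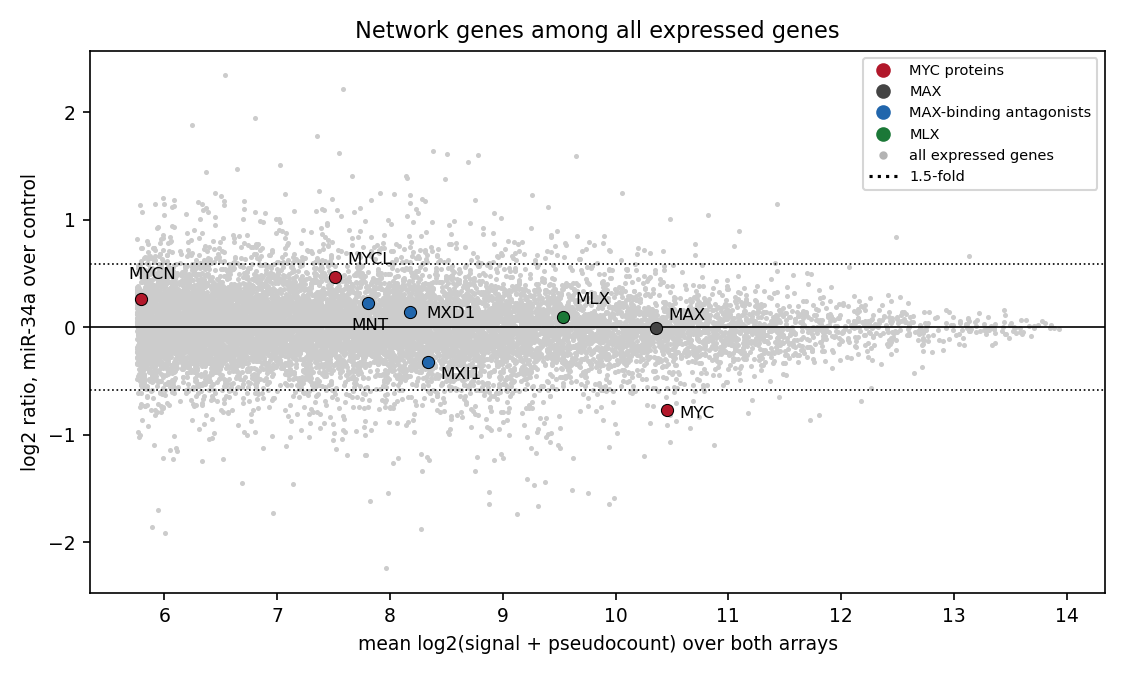
The log2 ratio of miR-34a over control against the mean log2(signal + 14.9) of both arrays for 12774 expressed genes (grey), with the 8 expressed members coloured by role and dotted lines at 1.5-fold. MYC lies at the lower edge of the cloud at -0.77 and MAX at almost the same level on the zero line.

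Partners that are not among the 10 members were measured next to MLX and MAX. MLXIP, the glucose-sensing partner of MLX, read 621.0 and 601.2 with miR-34a and, in the same order, 496.5 and 466.4 with control on its brighter probe sets. The log2 ratios were 0.31 and 0.35, higher on both, and close to the larger MLX ratios. MLXIPL, the liver form of that partner, read 38.0 with miR-34a and 54.3 with control, within background. MGA was lower on each of its 3 probe sets above background, which read 209.1, 185.1 and 169.9 with miR-34a and, in the same order, 264.7, 231.4 and 235.1 with control. Its log2 ratios were -0.33, -0.31 and -0.44. None of these passed 1.5-fold.

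Genes that MYC is known to activate were mostly lower with miR-34a. Of 64 such genes listed, many of them for ribosome production, 54 were expressed, and 48 of these were lower and 6 higher. The median log2 ratio was -0.27, against 0 for all expressed genes by construction and -0.026 for the 3194 expressed genes (the top 25%) with the highest mean level. In the list 88.9% were lower, and among those 3194 genes 56.0%. Past 1.5-fold were 5 of the 54 downward and 0 upward, beside 3.01% and 3.28% of all expressed genes. Without CDK4, which is itself a reported direct target of miR-34a, 47 of 53 were lower, 4 of them past 1.5-fold, with a median of -0.27. The list overlaps gene groups whose direction on these arrays was known when it was drawn up, and it is no independent evidence of a direction.

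The 5 genes past 1.5-fold had different roles. CDK4, the kinase that starts the step from G1 to S phase, read 572.8 with miR-34a and 1743 with control, a log2 ratio of -1.59. UNG, the glycosylase that removes uracil from DNA, read 329.3 with miR-34a and 604.6 with control, at -0.86. HK2, the hexokinase of growing cells, was lower on all 3 expressed probe sets, from -0.66 to -0.31. TMEM97, a membrane protein of sterol metabolism, had -0.65 on its brightest of 4 probe sets, and RRP9, which helps process ribosomal RNA, -0.59 on 1. TMEM97 and RRP9 were named after their values were seen.

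Other well-known MYC-induced genes had smaller ratios. ODC1, the first enzyme of polyamine synthesis, read 5538 with miR-34a and 7383 with control, at -0.42. NCL, the nucleolar protein nucleolin, read 5275 with miR-34a and 5678 with control, at -0.11. CCND2, the cyclin D2 gene, had -0.11 on its brightest probe set. A dimmer one had -0.61, at signals of 75.4 with miR-34a and 122.1 with control. The highest genes of the list were RRP12, a ribosome export factor, at 0.084, FARSA, a subunit of the phenylalanine tRNA synthetase, at 0.076 and the kinase gene MAP3K6 at 0.072, all near 0. The other expressed probe sets of RRP12 gave -0.24 each, and the other expressed probe set of FARSA gave -0.028.

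The E-box was frequent in the promoter windows of these genes. Of 45 expressed genes of the list with a window, 22 held CACGTG, a share of 48.9%, against 9.94% of 10273 expressed genes. The median log2 ratio was -0.32 in the 22 with the motif and -0.29 in the 23 without it, so genes with and without the motif lay close together. The window of CDK4 held the motif at 3 places. They are shown because CDK4 had the lowest ratio of the list, at chr12:57752509-57752538, chr12:57752489-57752518 and chr12:57752394-57752423 on the minus strand, and the flanks printed for sites 1 and 2 overlap. A match says only that these letters are present.
CDK4 site 1: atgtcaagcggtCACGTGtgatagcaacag
CDK4 site 2: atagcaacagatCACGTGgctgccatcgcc
CDK4 site 3: atgggtggcggtCACGTGcccagaacgtcc

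Of 12 listed genes that MYC is known to repress, 6 were expressed, 5 of them higher and 1 lower, where 50% of all expressed genes were higher. Their median log2 ratio was 0.085, between 0.037 and 0.17 under other settings, and none was past 1.5-fold. NDRG1, a differentiation gene, read 164.0 with miR-34a and 115.0 with control, at 0.45, and GADD45A, a gene of the DNA damage response, 1143 with miR-34a and 891.4 with control, at 0.34. The cell cycle inhibitor genes CDKN1A and CDKN1B had 0.13 and 0.034, and NDRG2 had 0.043. THBS1, which encodes the matrix protein thrombospondin, had -0.050 on its brightest probe set and up to 0.63 on a dim one. Most of these values are smaller than the SD of 0.24 between probe sets of a gene.

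Genes induced through MLX with its glucose-sensing partners split in direction. ARRDC4, an arrestin-like inhibitor of glucose uptake, read 216.6 with miR-34a and 106.8 with control, at 0.92, the only 1 of 6 at least 1.5-fold higher, where 3.28% of all expressed genes were. TXNIP, a further arrestin-like inhibitor of glucose uptake and the best known gene of this branch, was lower on all 3 probe sets. It read 391.5, 281.9 and 299.1 with miR-34a and, in the same order, 532.1, 454.4 and 419.8 with control, at -0.44, -0.67 and -0.48. PKLR, the pyruvate kinase of liver and red cells, was higher on all 3, from 0.28 to 0.47. KLF10, a transcription factor, had 0.23 and the fatty acid synthase gene FASN 0.058, while ACACA, the acetyl-CoA carboxylase gene, had -0.14 on 1 probe set and 0.29 on another. The median of the 6 was 0.15, with 4 higher and 2 lower, beside 50% each way among all expressed genes. It was 0.47 with the _s_at, _x_at and _a_at classes left out. That setting dropped TXNIP, KLF10 and FASN, and the median of ARRDC4, PKLR and ACACA was then the value of PKLR.

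ARRDC4 and PKLR both held CACGTG in the promoter window, and TXNIP and ACACA did not. Only these exact letters in this window were searched, so sites with other letters or further away were not looked for. The part of the motif in the directions of these genes was not tested. KLF10 and FASN, both higher with miR-34a, had no window to search. The sites of ARRDC4 and PKLR are shown because these 2 genes had the highest ratios of the list. They lie at chr15:97960481-97960510 (plus strand) for ARRDC4 and chr1:155301618-155301647 (minus strand) for PKLR.
ARRDC4: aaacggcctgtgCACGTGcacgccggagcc
PKLR: aaaatatctattCACGTGgatgaccagata

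**Figure D4:**
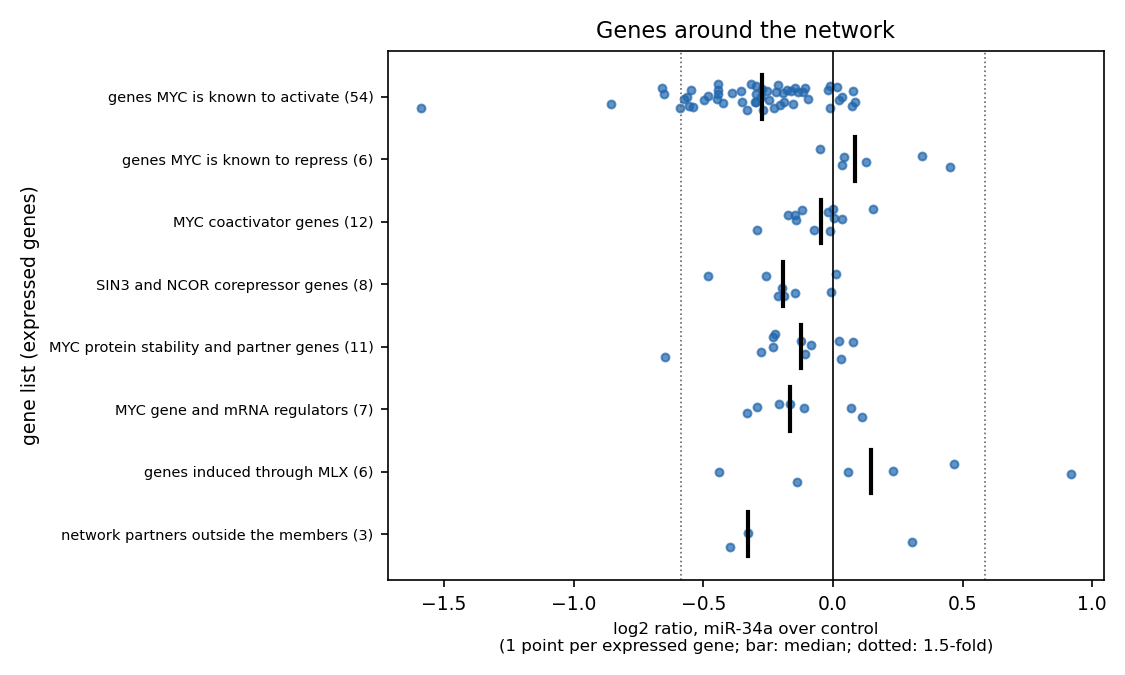
The log2 ratio of miR-34a over control for the expressed genes of each list, 1 point per gene, with the number of genes in brackets, a bar at the median and dotted lines at 1.5-fold. The 54 genes that MYC is known to activate lie mostly left of 0 with a median of -0.27, and the genes induced through MLX lie on both sides.

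The corepressor that the MXD proteins and MNT recruit was measured through its SIN3 and NCOR genes. Of 10 listed 8 were expressed, 7 lower and 1 higher, with a median log2 ratio of -0.19 and none past 1.5-fold. Among all expressed genes 50% were lower, and among the 3194 of highest mean level 56.0%. HDAC1, a histone deacetylase, read 1417 with miR-34a and 1970 with control, at -0.48, the largest size of the list. The histone-binding subunit gene RBBP7 had -0.26 and the deacetylase gene HDAC2 -0.21. The scaffold genes lay nearer 0, with SIN3A at -0.15 (brightest probe set) and 0.070. SIN3B had 0.011 on its brightest probe set and -0.12 and -0.0010 on its other expressed ones. SAP18, a small subunit gene, stood at -0.0083 and, on a dimmer probe set, at -0.32.

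Coactivators of MYC had a median near the control on their brightest probe sets. Of 13 listed 12 were expressed, 8 lower and 4 higher, beside 50% each way among all expressed genes. Their median was -0.045, and none was past 1.5-fold, where 3.01% of all expressed genes were downward and 3.28% upward. Dimmer expressed probe sets of these genes ran from -0.62, past 1.5-fold, to 0.24. KAT5 (TIP60), a histone acetyltransferase, was the lowest and was lower on all 3 probe sets, from -0.51 to -0.29. ACTL6A, an actin-like subunit of chromatin complexes, had -0.17 and EP400, a chromatin remodeller, -0.15. At the other end were CDK9, the kinase that releases paused RNA polymerase, at 0.15, the acetyltransferase gene EP300 at 0.036 and RUVBL2, an ATPase, at 0.0026.

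Genes that set the stability of MYC protein included 1 at least 1.5-fold lower, where 3.01% of all expressed genes were. USP36, a nucleolar deubiquitinase that stabilises MYC, read 213.9 with miR-34a and 341.6 with control, at -0.65, and its 4 expressed probe sets ran from -0.76 to -0.25. Of 12 such genes 11 were expressed, 8 lower and 3 higher, beside 50% each way among all expressed genes, with a median of -0.12. USP28, another deubiquitinase of MYC, had -0.28 on its brightest probe set and up to 0.054 on others, and AURKA, a mitotic kinase that protects MYCN from degradation, had -0.23 and -0.27. The highest was GSK3B, a kinase that marks MYC for degradation, at 0.079, with other probe sets down to -0.62. Next were the ubiquitin ligase genes HUWE1 at 0.031 and STUB1 at 0.022. Dimmer expressed probe sets of HUWE1 gave -0.18 and 0.055. The array measures mRNA, so the amount of MYC protein was not measured.

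Among 7 expressed genes that act on the MYC gene or its mRNA, 5 were lower and 2 higher, with a median of -0.17 and none past 1.5-fold. Of all expressed genes 50% were lower, and 3.01% and 3.28% were past 1.5-fold downward and upward. IGF2BP1, which binds and protects MYC mRNA, read 253.0 with miR-34a and 320.1 with control, at -0.33, while its second probe set stood at -0.0088. The RNA-binding protein gene ELAVL1 was lower on all 3 expressed probe sets, from -0.44 to -0.29. CNBP, which binds a control element of the MYC promoter, had -0.21, the insulator protein gene CTCF -0.17 and PUF60, a repressor of MYC transcription, -0.11. HNRNPK had 0.070, and FUBP1, an activator of MYC transcription, 0.11 on its brightest probe set and -0.21 and -0.16 on others. PVT1, the noncoding neighbour of MYC, did not pass the filter on mean level.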

How the data were processed

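The deposited table holds the authors' intensity of each probe set on 2 arrays, linear and with a floor of 1, which 3.54% of miR-34a and 3.59% of control probe sets held. How the authors corrected the background and scaled the arrays is unknown here, and it bears on dim probe sets most. Per the labels' protocols, biotinylated cRNA was made from 15 µg of Trizol-extracted RNA.

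From the deposited intensity, log2(value + 14.9) was taken, with the 25th percentile over both arrays as pseudocount. A probe set was expressed at or above the median mean level (a signal of about 39.0). A gene took its brightest expressed probe set, and ratios were centred by subtracting 0.0090. In the platform annotation 41091 probe sets had 1 symbol, 1801 had several and 11721 had none. Listed genes without a probe set of their own symbol were not analysed here.

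With 1 array per group, genes were counted by size (1.5-fold). The members and lists were chosen with earlier results of these data known. The text names every member, the 3 highest and 3 lowest genes of each list (all genes of short lists), and CDK4, ODC1, NCL, CCND2, CDKN1A, CDKN1B and TXNIP. No gene is named for likeness of pattern. The calculation was tested on simulated data. Python 3.11.15, NumPy 2.4.6, pandas 2.3.3, statsmodels 0.14.6 and matplotlib 3.10.9 were used.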

Additional observations from a re-analysis of the deposited data

How the results depend on the processing

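Settings were changed one at a time: the pseudocount (0.25 or 4 times), the filter and centring, quantile or loess normalization (span 0.3), the choice of probe sets and the size threshold. Added after the data were seen were a filter at the background signal, MXD4 with its shared probe sets, and the activated genes without CDK4. MYC lay between -0.77 and -0.74 under the 10 alternatives that gave it a value. The median of genes that MYC is known to activate lay between -0.29 and -0.24 under 11, and 1 of these genes passed at 2-fold in place of 5 at 1.5-fold. At 2-fold, and with the _s_at, _x_at and _a_at classes left out, which removes the only MYC probe set, 0 members were past the threshold downward. The difference between the medians of MYC proteins and antagonists was 0.33 with those classes left out. MYCL was then the only MYC protein with a value, so this is MYCL alone against the antagonists. The difference was 0.27 with probe sets averaged. It was -0.29 when filtering at the 75th percentile or at the background signal, both of which leave out MYCN. Over all expressed genes, counts past 1.5-fold were 996 lower and 1029 higher without a filter, 219 lower and 208 higher at 4 times the pseudocount, and 239 lower and 231 higher under the stricter filter. The median of genes induced through MLX was 0.47 without those classes, in place of 0.15, because TXNIP, KLF10 and FASN then dropped out. No paired analysis was possible because each group had 1 array. Signal over background limits MYCN, MXD3, MLXIPL and the dimmer MXD4 probe sets.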

Other observations

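Across all 10273 expressed genes with a promoter window, the 1021 whose window held CACGTG had a median log2 ratio of -0.031, and the others -0.00043.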
